A study of Homo sapiens with 4 samples.

Results

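SR proteins and heterogeneous nuclear ribonucleoproteins (hnRNPs) are the main RNA-binding regulators of pre-mRNA splicing, and their mRNAs were followed in A375 melanoma cells exposed to octanoate. Genes were taken by symbol: every SRSF gene, every HNRNP gene without a pseudogene name, the SR-like genes TRA2A and TRA2B, the nuclear speckle and splicing coactivator genes SON, SRRM1 and SRRM2, and the kinase genes CLK1 to CLK4. Of 56832 genes in the table, 46 fit by symbol and 41 of these averaged 100 normalised counts or more across all 4 libraries. These 41 genes are the members described here: 13 SRSF and TRA2 genes, 21 HNRNP genes and 7 SON, SRRM and CLK genes. The 5 genes under that mean were SRSF12, at 66.4, and HNRNPCL1, HNRNPCL2, HNRNPCL3 and HNRNPCL4, at 6.19 or less. The member with the lowest mean was HNRNPA1L2, at 474.9, and no member had a library under 444.3, so none entered through only 1 group.

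A375 is an established human melanoma cell line, labelled wild type. Cells were kept in serum-containing medium with either 1 mM octanoate, a saturated medium-chain fatty acid, or the solvent isopropanol, and both groups were collected at 48 h. Each group has 2 libraries, called vehicle 1 and 2 and octanoate 1 and 2. The stated purpose was to find genes and gene signatures that rise under the treatment. The labels do not say whether the 2 libraries of a group came from separate cultures. The p-values therefore rest only on spread between libraries, pooled over genes in the fit, and that spread may be technical.

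SR proteins carry RNA recognition motifs and a tail rich in arginine and serine. Bound to exonic enhancers, they help to bring the spliceosome to nearby splice sites. The hnRNPs coat nascent transcripts and often act the opposite way, keeping exons out, so the balance of both families shapes which exons a cell includes. CLK kinases phosphorylate the arginine-serine tail in the nucleus and release SR proteins from speckles. Many of these genes limit their own expression by splicing in an exon that exposes the mRNA to nonsense-mediated decay.

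The recovered read totals were between 67785956 and 78005035 per library. Melanoma identity rested on SOX10, at 34072 to 41363 normalised counts, and on MITF and S100B. MITF and S100B were both called lower under octanoate (log2 differences -0.48 and -1.12). The other melanocyte and melanoma markers had low counts. PMEL had 65.76 and 65.88 in vehicle and 98.18 and 95.37 in octanoate. It was called higher, and 10 of 16 other ways of processing kept that call. MLANA stood at 34.88 to 52.02 and DCT at 10.59 to 30.03, and neither was called. TYR stayed at 3.93 or less and the summed leukocyte markers at 14.7 or less. Some of the other markers moved with the treatment. The keratinocyte and epithelial markers summed to 988 and 1166 in vehicle and to 265.5 and 307.1 in octanoate, mostly KRT14, which was called lower. The endothelial sum rose from 136.6 and 141.3 to 242.8 and 258.0 through PECAM1, and COL1A1 and COL1A2 were called lower among 4 fibroblast markers. The part of these markers in the results below was not tested. In these bulk libraries, fewer cells that express a gene and less RNA per cell cannot be told apart.

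Messenger RNAs of the splicing regulators were lower under octanoate in 22 of 41 genes and higher in 1. The fit was limma on log2(normalised count + 1) over the 20250 genes whose mean reached 10, and a gene was called lower or higher at a Benjamini-Hochberg adjusted p under 0.05. Each SE and p borrows variance from genes of like abundance, so it is not the gene's own spread between replicates alone. In that fit 13.7% of all tested genes were called lower and 16.2% higher, 29.9% in all, against 53.7% of the members called lower. Since these genes are abundant, the 9003 tested genes averaging 1000 or more are a closer background: 20.0% of them were called lower and 18.1% higher. Many members average far more than 1000, up to 183327 for HNRNPA1, so this set is not fully matched for abundance. A share among genes of still higher mean was not computed. The median log2 difference of the members was -0.19, beside 0.01 over all tested genes and -0.02 over the abundant ones, and 38 of the 41 differences were below 0. Among the members called lower, the change in the mean ran from -34.1% to -11.4%. Octanoate libraries lay below vehicle libraries without overlap for 32 members, and above for 1 member, where 63.1% of all tested genes had no overlap in either direction and 30.5% had octanoate below. Among the abundant genes these shares were 69.4% and 38.2%.

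The number of members that pass differed between ways of processing. Without an intensity trend in the variance prior 4 members were called. With every gene that had a read in the fit, 43449 genes in place of 20250, 11 were called. All of these were called lower. Calls fell over all tested genes too. As reported, 2777 of 20250 were called lower, beside 530 of 20250 without the trend and 998 of 43449 with every gene that had a read. Members with an unadjusted p under 0.05 numbered 30 as reported, 19 without the trend and 28 with every gene that had a read. Over all tested genes, 8040 of 20250, 6207 of 20250 and 8924 of 43449 had such a p in these fits, in either direction. Leaving out octanoate 2 left 13 called lower. TRA2A, SRSF6, SRSF2 and SRSF3 were called lower in every 1 of the 16 alternatives run. Of the 41 members, 25 in the authors' deposited table had an adjusted p under 0.05 and a negative fold change and 1 had a positive fold change, against 12.9% of all 33533 genes in the authors' deposited table either way and 6.01% lower. All 23 members called here were among them, and HNRNPA2B1, HNRNPH1 and TRA2B were called in the authors' deposited table only. The 33533 genes were not restricted by abundance and include genes with few reads, such as HNRNPCL2 with a mean of 2.02. A share among abundant genes, the closer background, was not computed for that table.

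**Figure D1:**
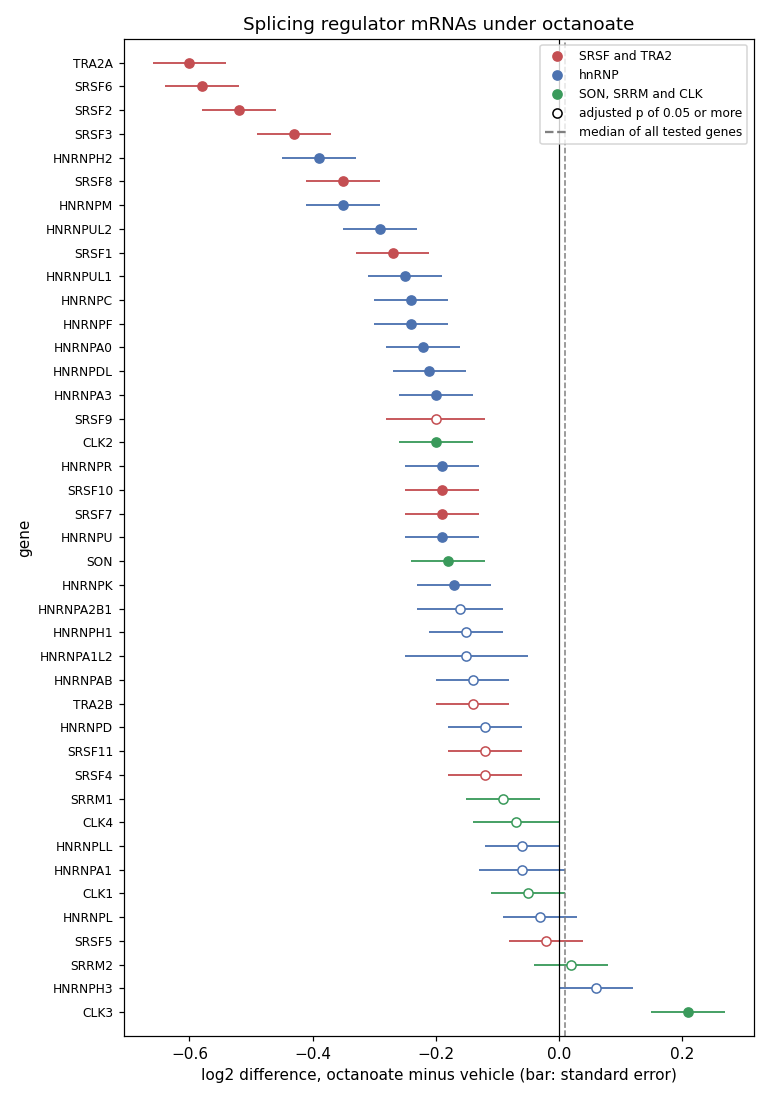
Log2 difference between octanoate and vehicle (x axis, log2 scale of normalised count + 1) for each of the 41 members (y axis). Bars give the standard error, which borrows variance from genes of like abundance. Filled points had an adjusted p under 0.05, colours mark the 3 groups of members and the dashed line is the median of all tested genes. Points lie from -0.60 for TRA2A to 0.21 for CLK3, and 38 of 41 are left of 0.

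Together the members took up 1.73% and 1.74% of the vehicle reads, and 1.5% and 1.56% of the octanoate reads. For the SRSF and TRA2 genes the shares were 0.293% and 0.299% in vehicle and 0.241% and 0.246% in octanoate. For the HNRNP genes they were 1.35% in both vehicle libraries, and 1.18% and 1.22% under octanoate. Both families therefore took a smaller share of the reads in each octanoate library than in either vehicle library.

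The SR family held the largest falls. Of its 13 members, 8 were called lower and none higher by limma, with 0 members higher also at an unadjusted p under 0.05. All 13 log2 differences were below 0, with a median of -0.20. SRSF5 turned to 0.02 after removal of GC and length trends, and to as much as 0.06 with 1 library left out. TRA2A, an SR-like protein that binds GAA-rich exonic enhancers, had normalised counts of 4219 and 4379 in vehicle and 2763 and 2905 in octanoate. The octanoate libraries were thus well below both vehicle libraries, with a mean that fell by 34.1% and a log2 difference of -0.60 (SE 0.06, adjusted p 4.31e-08). SRSF6, an SR protein that binds exonic enhancers, stood at 17867 and 17860 in vehicle and at 11650 and 12210 in octanoate. The vehicle libraries nearly coincided, and SRSF6 fell by 33.2%, a log2 difference of -0.58 (SE 0.06, adjusted p 1.72e-08). For SRSF2, a speckle-resident SR protein that activates exon inclusion, the counts were 15224 and 14632 in vehicle and 10412 and 10351 in octanoate. Its groups were far apart, with a log2 difference of -0.52 (SE 0.06, adjusted p 9.17e-08). SRSF3, the smallest SR protein, which also acts in mRNA export, had 41590 and 41195 counts in vehicle and 31036 and 30255 in octanoate. Replicates of each group nearly coincided, with a log2 difference of -0.43 (SE 0.06, adjusted p 2.36e-06).

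In GENCODE 29 on GRCh38, TRA2A lies on the minus strand at chr7:23504780-23532041, SRSF6 on the plus strand at chr20:43457928-43464247, SRSF2 on the minus strand at chr17:76734115-76737374 and SRSF3 on the plus strand at chr6:36594353-36605600. All are protein coding. Counts of SRSF6 and SRSF2 are less certain than the others: SRSF6 shares 1035 bases at 97.0% identity with AC005822.1, whose own mean was 11.9, and exons of SRSF2 overlap MFSD11 on the opposite strand, with the use of strand in counting not given in the sources used here. TRA2A and SRSF3 had neither an exon overlap nor such shared sequence.

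Smaller falls were called for SRSF8, SRSF1, SRSF7 and SRSF10. SRSF8, a close relative of SRSF2, had 4176 and 4020 counts in vehicle and 3284 and 3152 in octanoate, a log2 difference of -0.35 (SE 0.06, adjusted p 9.27e-05). SRSF1, the founding SR protein, which acts in constitutive and regulated splicing, had 25331 and 25043 in vehicle and 20586 and 21312 in octanoate. The log2 difference was -0.27 (SE 0.06, adjusted p 0.000772), with no overlap between the groups. The SRSF1 count is less certain, since it shares 1541 bases at 100% identity with AC015813.2. Exons of AC015813.2 overlap it on the same strand and those of AC015813.5 on the opposite strand. SRSF7, which shuttles between nucleus and cytoplasm and adapts mRNA to export, had 21418 and 20761 in vehicle and 18797 and 18189 in octanoate (log2 difference -0.19, SE 0.06, adjusted p 0.0125). SRSF10, which turns into a general splicing repressor when dephosphorylated, had 18591 and 18923 in vehicle and 16390 and 16518 in octanoate (log2 difference -0.19, SE 0.06, adjusted p 0.0115). The last 2 calls were lost in some fits with 1 library left out. For SRSF7 these were the fits without vehicle 1 or octanoate 2. For SRSF10 they were those without vehicle 2, octanoate 1 or octanoate 2. Such fits hold fewer libraries, so a call can be lost with little change in the difference. Over all alternatives the log2 difference ran from -0.21 to -0.15 for SRSF7 and from -0.20 to -0.15 for SRSF10. Without the intensity trend none of these 4 falls was called, with adjusted p of 0.0673 for SRSF8 and 0.0905 for SRSF1.

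The other 5 SR genes did not pass the test, with log2 differences from -0.20 to -0.02 and adjusted p from 0.0739 to 0.849. TRA2B, the paralog of TRA2A, had 22828 and 22398 counts in vehicle and 21027 and 20160 in octanoate (log2 difference -0.14, SE 0.06, adjusted p 0.0739). SRSF11 had 17217 and 17436 in vehicle and 15253 and 16779 in octanoate (log2 difference -0.12, adjusted p 0.15), and SRSF4 had 11914 and 11510 against 11006 and 10559 (log2 difference -0.12, adjusted p 0.116). In these 3 genes the octanoate libraries lay below the vehicle libraries without passing the threshold. TRA2B was called lower under 5 alternatives, among them edgeR (adjusted p 0.0374) and DESeq2 (0.0153) on the recovered reads. For SRSF11 the log2 difference was -0.05 without octanoate 1 and -0.18 without octanoate 2. SRSF5 had 11480 and 10987 in vehicle and 10470 and 11727 in octanoate, so that its highest and lowest libraries were both octanoate libraries (log2 difference -0.02, adjusted p 0.849). SRSF9 ranged from 7399 to 9122 in vehicle and from 6515 to 7903 in octanoate. Its replicates were far apart in both groups (SD 1219 and 981.5), and its log2 difference of -0.20 had an adjusted p of 0.0774. Which library was left out decided that value, which shrank to -0.04 without vehicle 1 and to -0.06 without octanoate 2 (adjusted p 0.775 and 0.692), and was -0.35 without vehicle 2 and -0.33 without octanoate 1 (0.00706 and 0.000296). SRSF9 was also called lower with the replicate number as a block (limma adjusted p 5.41e-05) and after removal of GC and length trends (0.0108). Its count is uncertain. It shares 1704 bases at 100% identity with GATC, whose own mean was 1675 and whose exons overlap it on the opposite strand. SRSF12, which is under the mean of 100 and no member, went the other way, with 54.97 and 56.19 counts in vehicle and 73.2 and 81.3 in octanoate (log2 difference 0.47, SE 0.21, adjusted p 0.0926).

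**Figure D2:**
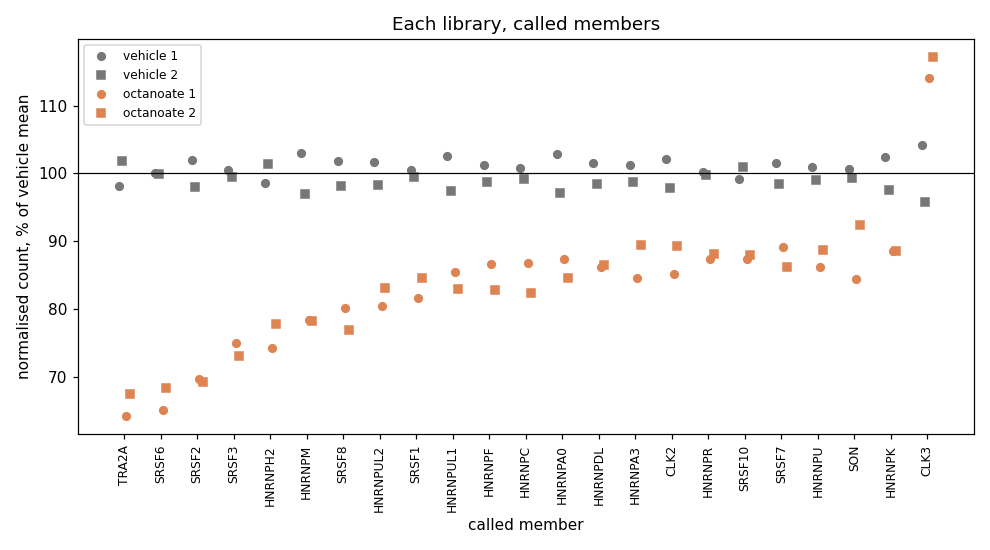
Normalised count of each library as a percentage of the vehicle mean (y axis) for the 23 called members (x axis, ordered by log2 difference); grey marks are vehicle libraries and orange marks octanoate libraries, circles replicate 1 and squares replicate 2. In the 22 members called lower both octanoate marks lie under both vehicle marks, and in CLK3 they lie above.

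Closely related SR genes were compared by their ratio within a library. The ratio of TRA2A to TRA2B was 0.185 and 0.196 in vehicle and 0.131 and 0.144 in octanoate. SRSF6 belongs to the same branch of the family as SRSF4 and SRSF5. Its ratio to SRSF4 was 1.5 and 1.55 in vehicle and 1.06 and 1.16 in octanoate, and its ratio to SRSF5 was 1.56 and 1.63 against 1.11 and 1.04. For SRSF2 over SRSF8 the ratio was 3.65 and 3.64 in vehicle and 3.17 and 3.28 in octanoate. In each of these 4 pairs the groups did not overlap. The pairs were not fixed in advance. Their numerators TRA2A, SRSF6 and SRSF2 had the largest falls among the SR genes, over relatives that fell less. A lower ratio was therefore largely set by the choice of pairs, and the share of gene pairs without overlap in general was not computed. A ratio within a library does not depend on the scaling between libraries, and it speaks only of unequal change. With 2 libraries a group the smallest two-sided p of an exact permutation test is 0.333, and the ratios are given as a description, without a test.

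Among the hnRNPs, 12 of 21 members were called lower and none higher by limma, with 0 members higher also at an unadjusted p under 0.05. The median log2 difference was -0.19, and 20 of 21 differences were below 0. The largest fall was that of HNRNPH2, which binds G-rich runs near splice sites. It had 6263 and 6437 counts in vehicle and 4722 and 4940 in octanoate, so that the mean fell by 23.9%, with a log2 difference of -0.39 (SE 0.06, adjusted p 1.12e-05). HNRNPM, which binds GU-rich RNA, had 49557 and 46668 in vehicle and 37702 and 37700 in octanoate. The octanoate libraries nearly coincided, and the mean fell by 21.6%, with a log2 difference of -0.35 (SE 0.06, adjusted p 6.11e-05).

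The 3 genes of the HNRNPU group, whose products carry a SAP domain that binds DNA, were all called lower. HNRNPUL2 had 5664 and 5482 counts in vehicle and 4488 and 4634 in octanoate (log2 difference -0.29, SE 0.06, adjusted p 0.000486). HNRNPUL1 had 28957 and 27480 in vehicle and 24108 and 23414 in octanoate (log2 difference -0.25, SE 0.06, adjusted p 0.00185). HNRNPU itself, a nuclear scaffold protein, had 106878 and 104839 in vehicle and 91283 and 93888 in octanoate (log2 difference -0.19, SE 0.06, adjusted p 0.022). Its call was lost without vehicle 1 (adjusted p 0.0657), octanoate 1 (0.204) or octanoate 2 (0.11).

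Of the other called hnRNPs, HNRNPC, which binds uridine tracts, had 73732 and 72536 counts in vehicle and 63482 and 60303 in octanoate (log2 difference -0.24, SE 0.06, adjusted p 0.0039). HNRNPF, which like HNRNPH2 binds G-rich runs, had 30596 and 29833 in vehicle and 26203 and 25046 in octanoate (log2 difference -0.24, SE 0.06, adjusted p 0.00255). Without octanoate 2 the adjusted p was 0.105 for HNRNPC and 0.0639 for HNRNPF. In the A/B group, whose best known members bind UAG-like motifs and often silence exons, HNRNPA0 had 21240 and 20067 in vehicle and 18058 and 17463 in octanoate (log2 difference -0.22, SE 0.06, adjusted p 0.00528). HNRNPA3 of the same group had 29614 and 28872 in vehicle and 24758 and 26149 in octanoate (log2 difference -0.20, SE 0.06, adjusted p 0.00993). HNRNPA0 was not called without vehicle 1 (adjusted p 0.0646) or octanoate 2 (0.0749), nor HNRNPA3 without vehicle 1 (0.0586) or octanoate 1 (0.155).

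HNRNPDL, a relative of the AU-rich element binding protein HNRNPD, had 35492 and 34434 counts in vehicle and 30129 and 30242 in octanoate (log2 difference -0.21, SE 0.06, adjusted p 0.00626). HNRNPR, which acts in mRNA processing and transport, had 37055 and 36912 in vehicle and 32316 and 32610 in octanoate (log2 difference -0.19, SE 0.06, adjusted p 0.0141). The groups of both genes were tight and apart. HNRNPK, a KH-domain protein that binds cytosine-rich RNA and DNA, had 67613 and 64429 in vehicle and 58524 and 58498 in octanoate (log2 difference -0.17, SE 0.06, adjusted p 0.0318). HNRNPDL was not called without octanoate 1 (adjusted p 0.0568) or octanoate 2 (0.0546), and HNRNPR not without octanoate 1 (0.111) or octanoate 2 (0.0903). HNRNPK lost its call without vehicle 1 (adjusted p 0.147), octanoate 1 (0.162) or octanoate 2 (0.179), and when dependence on GC and length was taken out. Over the whole family the count of 12 became 7 without octanoate 1 and 5 without octanoate 2. It was 5 with every gene that had a read and 0 without the intensity trend, where limma gave an unadjusted p under 0.05 for 11 of the 21. Over all tested genes, 998 of 43449 were called lower with every gene that had a read and 530 of 20250 without the trend. In the latter fit 6207 of the 20250 had an unadjusted p under 0.05.

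The 9 hnRNP genes that were not called had log2 differences from -0.16 to 0.06, and 4 of them had an unadjusted p under 0.05. HNRNPA2B1, which binds and sorts many RNAs, had 174370 and 167928 counts in vehicle and 150033 and 157274 in octanoate (log2 difference -0.16, SE 0.07, adjusted p 0.0861). HNRNPH1 had 47069 and 45145 in vehicle and 40053 and 43108 in octanoate (log2 difference -0.15, SE 0.06, adjusted p 0.065). Octanoate libraries were the lower ones in both genes. For HNRNPA1, a widely studied exon silencer, the counts were 192611 and 182095 in vehicle and 174922 and 183678 in octanoate. Its groups overlapped, and the log2 difference of -0.06 was within its SE of 0.07 (adjusted p 0.539). HNRNPH3 was the hnRNP with a positive difference, 0.06, with 11323 and 10472 in vehicle and 11194 and 11471 in octanoate (adjusted p 0.498). HNRNPAB, HNRNPD, HNRNPL, HNRNPLL and HNRNPA1L2 had log2 differences from -0.15 to -0.03 and adjusted p of 0.112 or more. The ratio of HNRNPH2 to HNRNPH1 was 0.133 and 0.143 in vehicle and 0.118 and 0.115 in octanoate, and that of HNRNPH2 to HNRNPH3 was 0.553 and 0.615 against 0.422 and 0.431, without overlap in either pair. HNRNPH2 was the hnRNP with the largest fall, so a lower ratio was largely set by the choice of pairs.

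Several hnRNP counts are uncertain because of pseudogenes and neighbours. HNRNPA1 shares at least 100 bases at 95% identity or more with 16 other genes in GENCODE 29, up to 1361 bases at 99.2%, and the retrocopy HNRNPA1L2 with 12. HNRNPC, HNRNPK and HNRNPA3 share 882, 1386 and 1072 bases with HNRNPCP2, HNRNPKP4 and HNRNPA3P1. HNRNPH2 and HNRNPUL2 are each part of a readthrough gene. Of the 22 members called lower, 8 had neither an exon overlap with another gene, microRNAs aside, nor such shared sequence: TRA2A, SRSF3, SRSF7, SRSF8, HNRNPA0, HNRNPDL, HNRNPF and HNRNPR. The 6 rows of the table with SRSF or HNRNP pseudogene names summed to 46.6 to 62.6 normalised counts per library.

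Of the 7 SON, SRRM and CLK genes, SON and CLK2 were called lower and CLK3 higher, and the median log2 difference was -0.07. The share called, 42.9%, is near the 38.1% of abundant tested genes called either way, and 28.6% were called lower, beside 20.0% of the abundant genes. SON, a scaffold of nuclear speckles that supports splicing at weak sites, had 17821 and 17577 counts in vehicle and 14949 and 16358 in octanoate (log2 difference -0.18, SE 0.06, adjusted p 0.023). The octanoate libraries differed from each other by more than the vehicle libraries did, and SON was not called without vehicle 1 (adjusted p 0.0978), vehicle 2 (0.062) or octanoate 1 (0.336, with a log2 difference of -0.11). SRRM2, the other main speckle scaffold, had 26509 and 28006 in vehicle and 27063 and 28183 in octanoate, with overlapping groups (log2 difference 0.02, SE 0.06, adjusted p 0.84). SRRM1, a splicing coactivator that bridges SR proteins and the spliceosome, had 7750 and 8019 in vehicle and 7463 and 7350 in octanoate (log2 difference -0.09, SE 0.06, adjusted p 0.247).

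Of the CLK kinases, CLK3 was the member that rose, from 4440 and 4078 counts in vehicle to 4858 and 4990 in octanoate. Its mean was 15.6% higher, a log2 difference of 0.21 (SE 0.06, adjusted p 0.0107). CLK2, its closest paralog, went the other way, with 5151 and 4934 in vehicle and 4300 and 4507 in octanoate (log2 difference -0.20, SE 0.06, adjusted p 0.0145). The ratio of CLK3 to CLK2 was 0.862 and 0.826 in vehicle and 1.13 and 1.11 in octanoate, higher in both octanoate libraries. Since CLK3 rose and CLK2 fell, the higher ratio follows from the choice of the pair. CLK1 had 2785 and 2747 in vehicle and 2710 and 2648 in octanoate (log2 difference -0.05, SE 0.06, adjusted p 0.628), and CLK4 had 1615 and 1607 against 1529 and 1541 (log2 difference -0.07, SE 0.07, adjusted p 0.485). Without vehicle 2 the adjusted p of CLK3 was 0.153 and without octanoate 2 it was 0.0775. CLK2 had 0.123 without vehicle 1 and 0.139 without octanoate 1. For the 7 genes together the count of 3 became 1 without vehicle 1, vehicle 2 or octanoate 1. It was 0 by limma without the intensity trend and 0 with every gene that had a read, where 0 and 3 genes had an unadjusted p under 0.05. Over all tested genes, 6207 of 20250 and 8924 of 43449 had such a p in these fits. Exons of CLK3 overlap EDC3 on the opposite strand, and CLK2 shares 659 bases at 96.8% identity with the pseudogene CLK2P1, so both counts are uncertain.

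To see how far the start regions of these genes resemble each other, the 250 bases upstream of the RefSeq start were read for the members. RefSeq on GRCh38.p14 gave an entry for 38 of the 41, without HNRNPA1, SRSF2 and TRA2A. The sequences are those of the 2 strongest falls among SRSF genes with an entry, of the hnRNP with the largest fall and of CLK3, the gene that rose. They stand at chr20:43457646-43457895 (SRSF6), chr6:36594112-36594361 (SRSF3), chrX:101407972-101408221 (HNRNPH2) and chr15:74608122-74608371 (CLK3), all on the plus strand. The CLK3 window lies inside the gene as GENCODE 29 draws it, after the start of its longest extent. Capitals mark matches, on either strand, to any of the 11 short motifs searched.
SRSF6: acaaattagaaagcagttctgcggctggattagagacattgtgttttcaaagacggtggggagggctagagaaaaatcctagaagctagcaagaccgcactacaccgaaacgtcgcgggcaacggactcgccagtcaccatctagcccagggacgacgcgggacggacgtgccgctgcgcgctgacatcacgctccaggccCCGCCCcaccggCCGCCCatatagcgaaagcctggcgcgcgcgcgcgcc
SRSF3: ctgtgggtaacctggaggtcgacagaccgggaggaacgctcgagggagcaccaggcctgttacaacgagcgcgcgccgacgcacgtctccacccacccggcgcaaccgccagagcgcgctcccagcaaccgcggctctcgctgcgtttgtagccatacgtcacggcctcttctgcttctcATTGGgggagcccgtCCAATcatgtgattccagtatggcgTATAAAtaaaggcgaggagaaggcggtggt
HNRNPH2: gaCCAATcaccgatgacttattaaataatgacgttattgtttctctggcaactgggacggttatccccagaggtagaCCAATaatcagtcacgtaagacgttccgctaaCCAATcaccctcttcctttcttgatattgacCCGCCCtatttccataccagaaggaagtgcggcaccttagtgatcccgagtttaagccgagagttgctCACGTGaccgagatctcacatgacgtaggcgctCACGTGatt
CLK3: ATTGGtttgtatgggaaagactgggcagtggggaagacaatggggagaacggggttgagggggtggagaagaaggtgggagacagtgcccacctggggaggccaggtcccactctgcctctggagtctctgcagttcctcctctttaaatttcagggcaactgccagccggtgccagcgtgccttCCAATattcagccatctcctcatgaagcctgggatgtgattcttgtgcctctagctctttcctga

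SRSF6 held matches to the GC box (GGGCGG) only, and SRSF3 held CCAAT matches on both strands with a TATA box (TATAAA) that starts 30 bases before the start site. HNRNPH2 held 3 CCAAT matches, a GC box and 2 E-box matches (CACGTG), and CLK3 held 2 CCAAT matches. Over the 38 members with an entry, 18 (47.4%) held CCAAT, beside 34.7% of tested genes with an entry and 33.0% of all 27305 promoters of this length. The GC box was found in 24 members (63.2%), beside 64.9% of tested genes and 42.3% of all promoters, and the TATA box in 5 (13.2%), beside 5.83% and 11.1%. E-box matches stood in 8 members (21.1%), beside 8.73% and 6.49%, and matches to the E2F core (TTCCCGC) in 8 (21.1%), beside 8.41% and 5.59%. The ETS core (CCGGAA) was found in 7 (18.4%), beside 23.2% and 14.8%, and TCGCGAG in 4 (10.5%), beside 3.44% and 2.01%. The NRF1 core (GCATGCG), the CRE core (TGACGTC) and the nuclear receptor core (AGGTCA) each stood in 1 member, and the AP-1 core (TGANTCA) in 0, beside 5.43%, 4.80%, 8.56% and 4.37% of tested genes. All motifs were searched on both strands, and none of the listed strings contains another. These are letter matches and do not show binding. Only the first RefSeq entry of each gene was read, and no set of promoters matched for abundance was compared. Whether the shares differ from those of equally abundant genes was not tested.

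Transcript annotation was not used to choose the members. In GENCODE 29, 32 of 41 (78.0%) have at least 1 annotated transcript marked for nonsense-mediated decay, as do 41.2% of tested protein-coding genes and 46.0% of those with a mean of at least 1000. All 13 SRSF and TRA2 genes have such a transcript, as do 13 of 21 hnRNP genes and 6 of the 7 others. Among the 22 members called lower 16 have one, and among the other 19 members 16 do. The members also have more annotated transcripts, a median of 12 beside 8 for protein-coding genes with a mean of 1000 or more. The deposited values are per gene and do not tell which transcripts changed.

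Other splicing genes were read from 5 lists that hold 143 genes. Their counts are set beside the abundant tested genes, of which 38.1% were called, 20.0% lower and 18.1% higher. Without the intensity trend 1625 of all 20250 tested genes were called, and 6207 had an unadjusted p under 0.05. With every gene that had a read, 2595 of 43449 were called. The list of hnRNP proteins with other symbols held 18 tested genes, of which 10 were called lower and 1 higher (61.1% called), with a median log2 difference of -0.16. SYNCRIP, the closest relative of HNRNPR, had 23071 and 23150 counts in vehicle and 18507 and 18907 in octanoate (log2 difference -0.31, SE 0.06, adjusted p 0.000164). The 11 calls became 4 without vehicle 1, 5 without octanoate 1 and 4 without octanoate 2. They were 2 with every gene that had a read and 0 by limma without the intensity trend, where 4 genes had an unadjusted p under 0.05.

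For the kinases, phosphatases and importers of SR proteins, 7 of 27 genes were called lower and 3 higher, with a median log2 difference of -0.09. The share called, 37.0%, is near that of abundant genes, and 25.9% were called lower, beside 20.0% of the abundant genes. The cytoplasmic SR kinase genes were not called: SRPK1 had a log2 difference of 0.07 (adjusted p 0.369) and SRPK2 of -0.07 (adjusted p 0.418). DYRK1B, a dual-specificity kinase, had 930.5 and 857.4 counts in vehicle and 615.1 and 578.7 in octanoate (log2 difference -0.58, SE 0.08, adjusted p 1.01e-05). PRPF4B, a kinase of the spliceosome, had 9621 and 9664 in vehicle and 7251 and 7854 in octanoate (log2 difference -0.35, SE 0.06, adjusted p 4.69e-05). Counts of calls in this list were 5 with every gene that had a read and 1 without the intensity trend.

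Of 34 factors that recognise the 5′ and 3′ splice sites, 9 (26.5%) were called lower and none higher by limma, with a median log2 difference of -0.12. This share is below the 38.1% of abundant genes called either way and above the 20.0% of them called lower. ZRSR2 and SNRPA1 had a positive difference at an unadjusted p under 0.05. SF3B4, a subunit of the U2 particle, had 9436 and 8809 counts in vehicle and 7716 and 6929 in octanoate (log2 difference -0.32, SE 0.06, adjusted p 0.000338). DDX46, a helicase that acts when U2 is loaded, had 22876 and 23065 in vehicle and 18411 and 19803 in octanoate (log2 difference -0.27, SE 0.06, adjusted p 0.000965). The count for this list moved in both directions: 14 were called with TMM factors, with edgeR and with DESeq2, 15 with equal column totals and 16 after removal of GC and length trends (1 of them higher), but 4 without vehicle 1, 5 without octanoate 2, 1 with every gene that had a read and 0 by limma without the intensity trend, where 6 had an unadjusted p under 0.05.

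Among 45 tested genes of other splicing regulators, 18 were called lower and 2 higher (44.4% called), with a median log2 difference of -0.12. BCLAF1, a serine- and arginine-rich protein found with splicing complexes, had 19419 and 19583 counts in vehicle and 13693 and 14124 in octanoate (log2 difference -0.49, SE 0.06, adjusted p 2.66e-07). SRRM3, a regulator of neuronal microexons, had 789.2 and 800.3 in vehicle and 1169 and 1106 in octanoate (log2 difference 0.52, SE 0.08, adjusted p 1.42e-05). THRAP3, the partner of BCLAF1, was named after its values were seen, and its log2 difference was -0.42 (SE 0.06, adjusted p 2.68e-06). The 20 calls were 12 without vehicle 1, 9 with every gene that had a read and 5 without the intensity trend. Of 18 nonsense-mediated decay genes, 6 (33.3%) were called lower and none higher by limma, with a median of -0.10. This share is near the 38.1% of abundant genes called either way and above the 20.0% of them called lower. At an unadjusted p under 0.05, 0 were higher. SMG8, a regulator of the kinase SMG1, had 2805 and 2652 in vehicle and 2232 and 2268 in octanoate (log2 difference -0.28, SE 0.06, adjusted p 0.00175), and PNRC2, a decapping cofactor, had 10910 and 10783 against 8706 and 9235 (log2 difference -0.27, SE 0.06, adjusted p 0.000632). Of these genes 1 was called higher without octanoate 1 and after removal of GC and length trends. The 6 calls were 3 without vehicle 1, 2 with every gene that had a read and 0 by limma without the intensity trend, where 4 had an unadjusted p under 0.05.

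**Figure D3:**
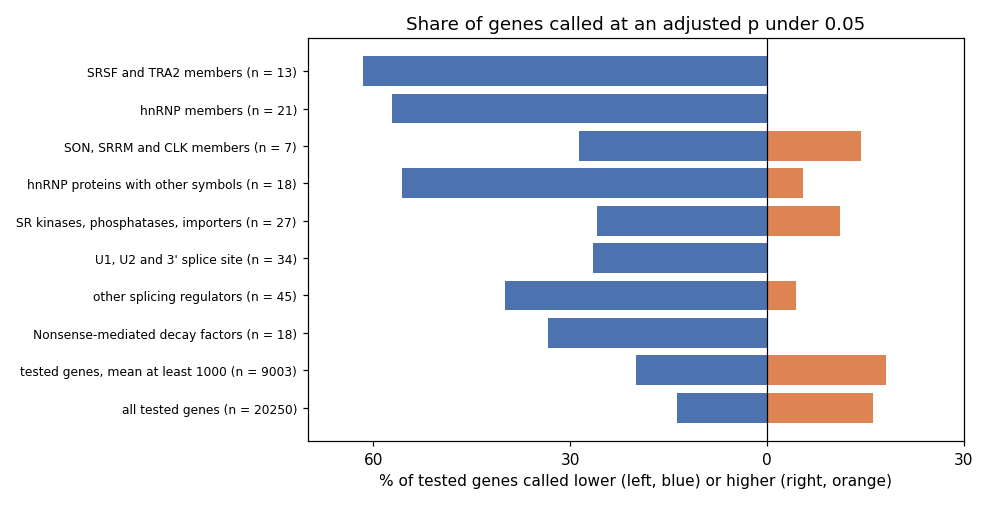
Share of tested genes called lower (blue, left) or higher (orange, right) at an adjusted p under 0.05, for the 3 groups of members, the 5 lists of other splicing genes, the abundant tested genes (mean of 1000 or more) and all tested genes (x axis, percent; y axis, set with its number of genes). The hnRNP members and the SRSF and TRA2 members have 57.1% and 61.5% called lower, beside 20.0% and 13.7% in the 2 background sets.

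**Figure D4:**
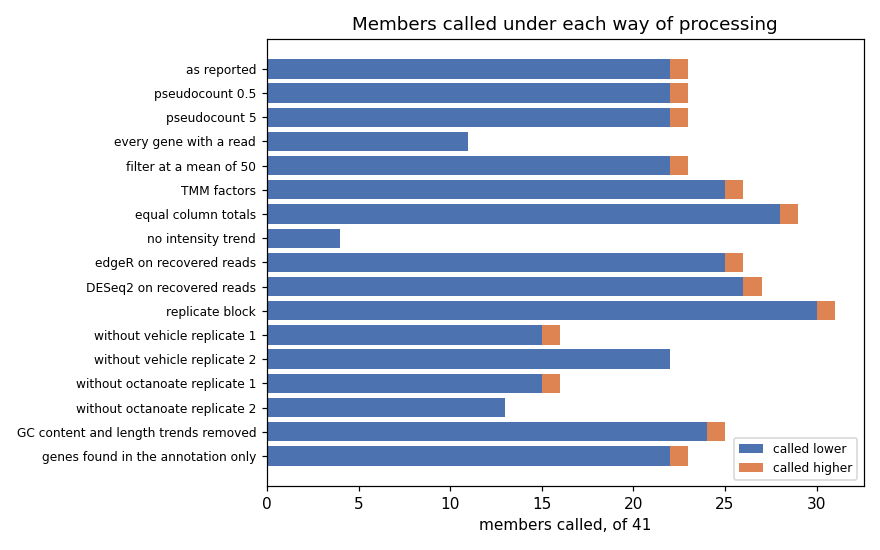
Number of the 41 members called lower (blue) and higher (orange) as reported and under each of the 16 alternatives (x axis, count of genes; y axis, way of processing). Bars run from 4 members without an intensity trend to 31 with the replicate number as a block.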

How the data were processed

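RNA from 2 vehicle and 2 octanoate libraries of A375 cells was sequenced. The deposited signal values are gene counts divided by 1 size factor per library, per the file headers, and whole reads were recovered for 100% of values (tolerance 0.001). The submitters' processing notes name bcl2fastq 2.17, Trim Galore, STAR 2.4, Picard, HTSeq 0.9.1 and DESeq2 with build hg38, and the annotation and strand setting are not given in the sources used here. The authors' deposited table gives per gene a mean, a log2 fold change, its error, a score (the test statistic), a p-value and an adjusted p-value.

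Differences were fitted with limma 3.58.1 (R 4.3.3, intensity trend) on log2(normalised count + 1) for 20250 genes with a mean of at least 10, with Benjamini-Hochberg adjustment over all of them, and the method was tested on simulated data. Since 1 is added, fold changes of low genes are understated. Alternatives were pseudocounts of 0.5 and 5, other filters (every gene with a read, a mean of 50), TMM factors, equal column totals, no intensity trend, edgeR 4.0.16 and DESeq2 1.42.0 on the recovered reads, the replicate number as a block, GC content and length trends removed, each library left out and, chosen after seeing the data, annotated genes only. Values in each library are given for every called member, the CLK, SON, SRRM and TRA2 genes, the 3 SRSF and 3 HNRNP genes with the highest mean among those not called, and the 2 largest called changes of each list (mean of at least 100, no overlap), except 1 list gene that is not reported here. SRSF9, HNRNPH3, SRSF12 and THRAP3 were added after their values were seen. The members and lists were chosen with earlier results of these data known. Gene positions, transcript types and overlaps come from GENCODE 29, shared sequence from blastn 2.17.0, and promoters from RefSeq.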

Additional observations from a re-analysis of the deposited data

How the results depend on the processing

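Of 656 member values under 16 alternatives, 558 kept direction and side of the threshold, 60 lost the call, 30 gained it and 8 changed sign. The sign changed, always in genes not called, for HNRNPL (0.04) and HNRNPLL (0.01) without octanoate 2, for SRRM2 without vehicle 1 (-0.02) and octanoate 2 (-0.01) and after removal of GC and length trends (-0.00), and for SRSF5 without vehicle 1 (0.01) and octanoate 1 (0.06) and with those trends removed (0.02). Leaving out each library in turn gave -0.11 to 0.04 for HNRNPL, -0.13 to 0.01 for HNRNPLL and -0.10 to 0.06 for SRSF5. The cause was not tested. A fit of all genes with any read called 2595 genes in place of 6048 (61.5% higher, beside 54.1%), 11 members, 5 hnRNP members, 0 SON, SRRM and CLK members (3 at an unadjusted p under 0.05), and 5 kinase list, 2 other hnRNP, 1 splice site, 9 other regulator and 2 decay genes. Without the intensity trend the counts were 1625 genes (67.4% higher), 4 members, 4 SR and 0 hnRNP members, and in the same order of sets 0, 1, 0, 0, 5 and 0 (0, 8, 4, 6, 18 and 4 at an unadjusted p under 0.05). Splice site genes numbered 14 with TMM factors, edgeR or DESeq2, 15 with equal totals and 16 after that removal, which moved the members' median from -0.188 to -0.155. Genes with an annotation numbered 15183 of 20250, under 80%, so that check is void over all tested genes. With 1 library left out the counts ran from 4295 to 4757 for all genes, 13 to 22 for members, 6 to 8 for SR, 5 to 13 for hnRNP and 1 to 2 for SON, SRRM and CLK members. For the lists they ran from 7 to 11 (kinases), 4 to 9 (other hnRNPs), 4 to 11 (splice sites), 12 to 17 (other regulators) and 3 to 6 (decay), and the median from -0.209 to -0.165. The lone library left in a group is assumed to vary like the others. With the replicate block, 8376 of 20250 genes were called, and with them 31 members (1 higher), 18 kinase list (6 higher), 21 splice site (2 higher) and 11 decay genes (2 higher). The labels do not say what a replicate number shares. Same-numbered libraries had correlated deviations (r 0.126 over 20250 genes and 0.39 over the 9003 abundant ones). With 2 libraries a group, their deviations from the group mean mirror each other, so both pairs give the same r. Such an r cannot show whether a replicate number pairs libraries.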

Other observations

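Values of 2 list genes outside the rule for named genes, chosen after they were seen, stand apart in size. NOVA2, a neuronal splicing regulator, had 19.6 and 21.3 normalised counts in vehicle and 68.3 and 69.4 in octanoate (log2 difference 1.70, SE 0.26, limma adjusted p 2.28e-05). U2AF1, the small subunit of the factor that reads the 3′ splice site, had 91.3 and 103.7 in vehicle and 84.7 and 79.1 in octanoate, while its partner U2AF2 had 29277 and 28130 against 25465 and 23135. Whether reads of U2AF1 were lost to another copy of its sequence in the build was not checked, so its count cannot be read as its expression.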
